A study of Mus musculus with 14 samples.

Results

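Interferon-stimulated genes and nucleic acid sensors were followed in mouse HPC-LSK lines, haematopoietic progenitor lines modelled on the Lin-, Sca-1+, Kit+ fraction of bone marrow, that differed in the cell cycle kinase gene Cdk6 and in the oncogene BCR-ABL p210. The members were 53 genes chosen by symbol, out of 50686 genes in the files, with earlier results of these data known. They comprise 4 receptor chains, 6 interferon regulatory factors, 25 genes of the type I response, 6 nucleic acid sensors, 8 guanylate-binding and immunity-related GTPases and 4 genes of antigen processing. All 53 were found, and 51 passed the filter on low counts, Ifi44 and Iigp1 being the exceptions. There were 4 Cdk6 knockout (KO) p210 libraries, 3 wild-type (WT) p210, 3 KO untransformed and 4 WT untransformed libraries, all of C57BL/6N background. The p210 lines were cultured without IL-6 or SCF by the protocol, although their descriptions carry the letters SCF, and the untransformed lines in IMDM with IL-6 (12.5 ng/ml) and SCF (2%), so every p210 comparison also holds a change of medium and the 2 cannot be told apart. Whether replicates are independent cultures is not stated in the labels, and the p-values therefore reflect sample-to-sample spread that may be technical. In 6 cases the same code and letter appear in an untransformed and a p210 library, which was read as 1 line in both states.

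Type I interferons bind the receptor chains Ifnar1 and Ifnar2 on almost any cell, and interferon gamma binds Ifngr1 and Ifngr2. The bound receptors activate JAK kinases, which phosphorylate transcription factors of the STAT family. The type I complex, which holds Stat2 and Irf9, binds the interferon-stimulated response element (ISRE), and the response to interferon gamma acts through the gamma-activated site (GAS). The genes they switch on encode antiviral effectors, sensors of foreign nucleic acid and the machinery of antigen presentation. Many are also transcribed at a low, tonic level in uninfected cells, and interferon is known to drive quiescent haematopoietic stem cells into cycle.

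The response element is shown in member promoters because many members share it and the choice of members did not use it. RefSeq windows on GRCm38.p6, from 250 bases before to 50 bases after a start site, were available for 42 of the 53 members. The ISRE core searched was GAAANNGAAA on both strands, with overlapping matches counted. It was present in 19 of the 42 members (45.2%), against 3.44% of 32851 windows of the same length and 3.99% of 27025 genes. The GAS core TTCNNNGAA, which reads the same on both strands and may share bases with an ISRE core, was present in 18 of the 42 members (42.9%), against 8.3% of windows and 9.55% of genes. The ISRE core was found in 7 of 7 GTPase genes with a window, 3 of 4 sensors, 8 of 18 type I response genes, 1 of 6 transcription factors, 0 of 4 receptors and 0 of 3 antigen-processing genes. These matches are descriptions of letters and not of bound sites.

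Each stretch below holds the 180 bases before the start site, 5′ to 3′ on the coding strand, with ISRE cores in capitals. Isg15 (chr4:156200819-156200998, minus strand), Ifit1 (chr19:34640709-34640888, plus strand), Ifit3 (chr19:34583349-34583528, plus strand), Oas1a (chr5:120907526-120907705, minus strand) and Gbp5 (chr3:142496754-142496933, plus strand) are shown as genes with a core. Oasl2 (chr5:114896754-114896933, plus strand) and Ifit2 (chr19:34550514-34550693, plus strand, the first of its windows) are shown because they fell in KO p210 lines and hold no core in their windows.
Isg15: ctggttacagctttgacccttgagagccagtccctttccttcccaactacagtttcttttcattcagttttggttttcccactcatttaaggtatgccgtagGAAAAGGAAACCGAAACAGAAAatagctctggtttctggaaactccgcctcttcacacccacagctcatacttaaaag
Ifit1: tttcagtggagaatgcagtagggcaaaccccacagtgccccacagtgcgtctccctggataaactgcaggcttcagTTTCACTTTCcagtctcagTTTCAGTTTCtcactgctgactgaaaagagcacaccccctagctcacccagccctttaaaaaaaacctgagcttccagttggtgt
Ifit3: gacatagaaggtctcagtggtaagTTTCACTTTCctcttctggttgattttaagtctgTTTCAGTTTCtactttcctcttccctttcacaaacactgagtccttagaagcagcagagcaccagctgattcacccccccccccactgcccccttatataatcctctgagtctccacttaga
Oas1a: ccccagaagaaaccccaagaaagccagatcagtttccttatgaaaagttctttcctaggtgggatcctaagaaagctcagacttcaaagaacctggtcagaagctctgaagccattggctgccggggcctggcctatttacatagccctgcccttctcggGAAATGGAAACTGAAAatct
Gbp5: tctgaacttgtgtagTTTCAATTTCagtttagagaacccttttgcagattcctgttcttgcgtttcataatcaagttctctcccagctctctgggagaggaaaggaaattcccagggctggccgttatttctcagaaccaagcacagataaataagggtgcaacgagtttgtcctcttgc
Oasl2: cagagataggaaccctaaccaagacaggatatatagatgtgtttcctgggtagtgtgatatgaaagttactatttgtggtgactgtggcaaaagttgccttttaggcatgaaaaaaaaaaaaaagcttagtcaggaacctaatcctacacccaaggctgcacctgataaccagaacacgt
Ifit2: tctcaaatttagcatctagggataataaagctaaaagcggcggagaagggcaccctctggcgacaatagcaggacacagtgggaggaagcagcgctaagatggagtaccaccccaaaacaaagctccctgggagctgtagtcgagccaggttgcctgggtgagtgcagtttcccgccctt
In Isg15 3 overlapping cores began 78, 72 and 66 bases before the start site. Ifit1 and Ifit3 each held 2 separate cores. These and the Gbp5 core, 165 bases before the start, lie on the opposite strand and read here as the reverse complement. Oas1a held 2 overlapping cores that began 20 and 14 bases before the start. The absence of a core in the Oasl2 and Ifit2 stretches says only that these letters are not in the windows.

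Library totals ranged from 20270348 to 50303271 counts. The labelled cell type was checked first: the LSK markers Kit, Ly6a (Sca-1) and Cd34 had reads in all 14 libraries, with Ly6a as low as 0.553 CPM in KO p210 replicate 3. Reads alone are a limited check of cell type. Kit and Flt3, of 5 listed LSK markers, fell with p210 in both genotypes (list medians -1.56 in KO and -2.02 in WT lines). The mast cell and basophil markers Cpa3 and Mcpt8 rose with p210 in both genotypes, and Cma1 fell in WT lines. The erythroid markers Epor and Gata1 fell with p210 in both genotypes and in KO against WT p210 lines. Hbb-bt rose with p210 in WT lines. Of 6 plasmacytoid dendritic markers 2 (Siglech and Ly6d) were at 0 in all libraries, and the 6 summed to 21.9 to 28.3 CPM in KO p210, 48.4 to 109.6 CPM in WT p210, 95.5 to 101 CPM in KO untransformed and 98.4 to 129 CPM in WT untransformed libraries. Tcf4, the only one of them tested, fell in KO p210 lines and with p210 in both genotypes. Of 9 T, B and NK cell markers 3 (Cd3e, Cd8a and Rag1) were at 0 in all libraries, and the 9 held 202 counts in total. Cdk6 stood at 236 to 271 CPM (counts scaled to library depth) in KO untransformed libraries and 970.2 to 1305 CPM in WT untransformed libraries. In p210 lines, the library labelled KO p210 replicate 2 had 578 CPM, inside the range of 576 to 606 CPM in WT p210 libraries, and the remaining 3 KO p210 libraries ranged over 163 to 326 CPM. The count of that library goes against its label, and the counts, medians and calls of the members in the KO p210 group are given with it and then without it. Outside the members this was done only for some named genes. The part of Cdk6 removed in the knockout is not given in the sources used here, so a count over the whole gene is a limited check of the labels.

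In untransformed lines the knockout had more mRNA of all 4 interferon receptor chains and of part of the response machinery. In p210 lines none of the 51 tested members rose in the knockout, and 4 effectors fell: Oasl2, Rtp4, Ifit2 and Usp18. With p210, 28 members fell in KO lines and 15 in WT lines. By edgeR's quasi-likelihood test with Benjamini-Hochberg adjustment over all 14512 genes tested, at a threshold of 0.05, 12 of 51 members rose and 1 fell in KO untransformed lines, where 15.2% of all genes passed, 8.73% rising and 6.5% falling. The median log2 fold change of the members was 0.28, against -0.02 over all genes tested. KO and WT untransformed libraries did not overlap for 23 of 51 members (19 above, 4 below), against 39.7% of all genes (20.8% above, 18.9% below). In p210 lines KO and WT libraries did not overlap for 9 of 51 members (2 above, 7 below), against 13.3% of all genes (5.64% above, 7.7% below). Here 0 rose and 4 fell in the knockout, against 0.882% and 3.56% of all genes (4.44% in all), with a median of -0.19 for members and -0.00 for all genes. With p210 in KO lines 2 members rose and 28 fell, against 19.2% and 18% of all genes (37.2% in all), and the states did not overlap for 33 (4 above, 29 below), against 46.1% (22.6% above, 23.5% below). With p210 in WT lines 8 rose and 15 fell, against 21.9% and 17.6% of all genes (39.5% in all), and the states did not overlap for 28, against 45% of all genes. The member medians were -0.72 in KO lines and -0.38 in WT lines, against -0.01 and 0.02 over all genes. The number of rises in WT lines was unstable: it was 2 without WT p210 replicate 3, 4 without WT untransformed replicate 4, 3 with merged runs as a term and 3 within the first code. Calls over all genes, in either direction, were 4679, 4668, 3652 and 3725 in the same order, against 5727 in the main fit. With the line as a replicate block, 0 rose and 23 fell in KO lines, and 4 rose and 15 fell in WT lines.

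**Figure D1:**
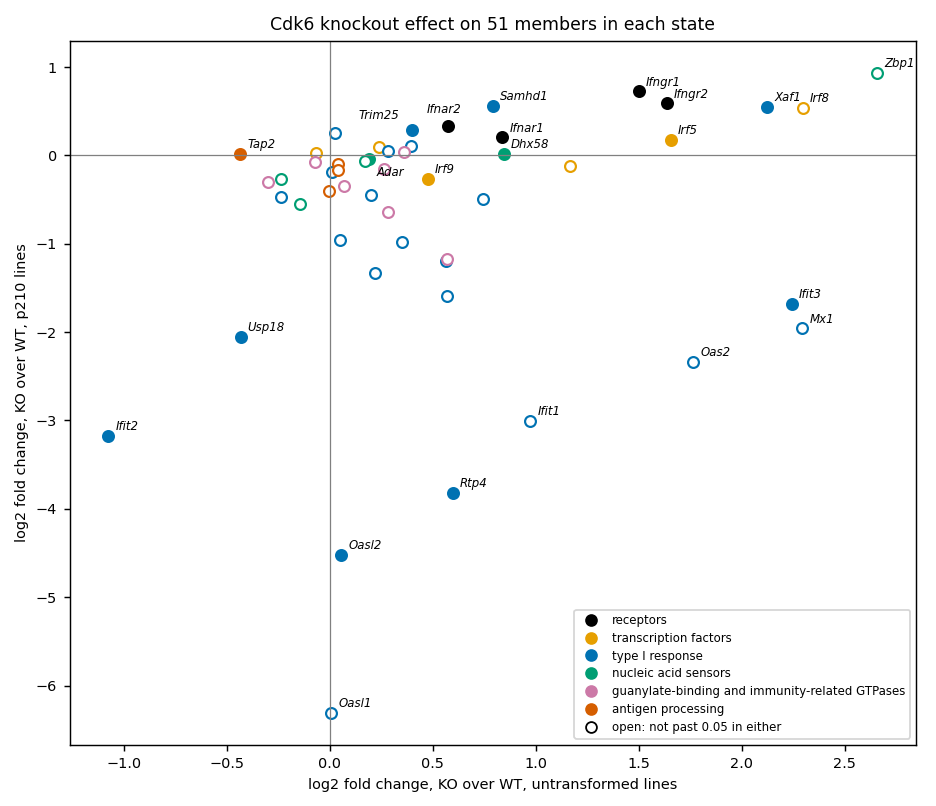
Log2 fold change of KO over WT for 51 members, in untransformed lines on the horizontal axis and in p210 lines on the vertical axis, with 1 point per gene coloured by role and filled where it passed 0.05 in either state. The 4 receptors lie above 0 in both states, and Oasl2, Rtp4, Ifit2 and Usp18 lie between -4.52 and -2.05 on the vertical axis. Oasl1, with 0 counts in all KO p210 libraries, is drawn at its fitted value, which is not a measured fold.

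Without the library labelled KO p210 replicate 2, the members that passed between KO and WT p210 lines were again 0 up and 4 down. Of all genes 2.1% then passed. The median of the members was -0.23, and 12 of 51 had groups that did not overlap (3 above, 9 below), against 15.8% of all genes. The type I response then had a median of -1.05 and the receptors 0.46. With p210 in KO lines 2 members rose and 24 fell without that library, where 33.2% of all genes passed. The median was -0.76 over the members and -1.65 over the type I response. The calls of Irf7 (-1.29, adjusted p = 0.0567), Irf8 (-2.56, adjusted p = 0.0706), Mx2 (-1.84, adjusted p = 0.0659), Trim25 (-0.39, adjusted p = 0.0541) and Eif2ak2 (0.37, adjusted p = 0.066) were lost, and Adar rose (0.17, adjusted p = 0.0312). The other falls in KO lines remained, among them Ifngr1 (-2.22), Irf2 (-0.57), Ifih1 (-1.55), Gbp5 (-4.53) and Psmb9 (-1.20), and Mx1 was at 0.02. The rise of Socs1, an inhibitor outside the members, was 3.14. The interaction had a median of -0.75, with 48 of 51 members below 0 and 19 at an unadjusted p under 0.05, and 0 passed.

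Myeloid markers were higher in the KO untransformed libraries in which the receptors and response genes were higher. Of 8 monocyte and macrophage markers, 3 rose in KO untransformed lines (Lyz2, Cd68 and Adgre1) and all 8 had values above 0. Their summed level was 8339 to 13390 CPM in KO and 232 to 2808 CPM in WT untransformed libraries. Of 9 neutrophil markers 0 passed, and their sum was 14580 to 18820 CPM in KO and 99.7 to 7524 CPM in WT untransformed libraries, the lowest being WT untransformed replicate 3. In p210 lines 0 of the 8 monocyte markers passed, with sums of 4224 to 9258 CPM in KO and 1651 to 3953 CPM in WT libraries, and the neutrophil markers summed to 1143 to 14100 CPM in KO and 932.9 to 2978 CPM in WT p210 libraries. With p210 in KO lines 7 of the 8 monocyte markers had values below 0 (median log2 fold change -1.27), of which Cd14 and Csf1r fell, and the 5 tested dendritic and MHC class II markers had a median of -1.67 with 3 below 0. In WT lines the medians of these lists with p210 were 0.40 and 0.05, and Cd68 and Adgre1 rose. Itgax, of the dendritic list, rose with p210 in both genotypes. The 9 neutrophil markers had medians of 2.23 in KO lines (6 above 0) and 0.32 in WT lines with p210. Of these, Prtn3 and Mpo fell in both genotypes. The conventional dendritic and MHC class II markers summed to 158 to 276 CPM in KO and 10.5 to 119 CPM in WT untransformed libraries, with Xcr1 at 0. In bulk RNA, more cells of a type and more RNA per cell cannot be told apart, and the part of these markers in the receptor and response gene values was not tested.

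The calls in untransformed lines rested on few libraries. With KO untransformed replicate 2 left out, 1 of the 13 passed (Ifnar1), without KO untransformed replicate 1 there were 3, without WT untransformed replicate 4 there were 3 and without WT untransformed replicate 3 there were 4. Calls over all genes fell as well, from 2211 to 181, 691, 928 and 1195 in the same order. Without the library labelled KO p210 replicate 2, which enters through the shared spread, 9 members and 1909 of all genes passed. Libraries merged from 2 sequencing runs were 1 of 3 in the KO and 3 of 4 in the WT untransformed group. With merging as a term 1042 of all genes passed, among them 4 members: Ifnar1, Ifngr1, Xaf1 and Samhd1. Within either code alone 0 passed (20 and 12 members at an unadjusted p under 0.05), while all 13 kept their direction in both codes and 13 members, 11 of them the same, passed with code as a block. With p210, libraries of the first code alone gave 30 calls in KO and 21 in WT lines, and those of the second 0 and 2, and every member called in the pooled fit kept its direction in both.

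All 4 receptor chains were higher in KO than in WT untransformed lines. Ifnar1 (chr16:91485238-91507441, GRCm38), a chain of the type I receptor, had 108, 136 and 108 CPM in KO untransformed libraries, against 80.0, 70.9, 49.3 and 62.4 CPM in WT untransformed libraries. The groups did not overlap (log2 fold change 0.84 ± 0.14 SE, adjusted p = 0.00656). The call held with each of the 14 libraries left out in turn, with adjusted p between 0.00359 and 0.0464. Its partner Ifnar2 rose by less, with 82.2, 85.6 and 82.6 CPM in KO and 63.6, 61.7, 44.8 and 54.1 CPM in WT untransformed libraries (log2 fold change 0.57 ± 0.14, adjusted p = 0.0209). Of its exon bases, 9.46% overlap Gm21970 on the same strand. The ligand-binding interferon gamma receptor chain Ifngr1 (chr10:19591949-19610229) had 468, 563 and 354 CPM in KO and 274, 139.5, 98.2 and 143 CPM in WT untransformed libraries, again without overlap (log2 fold change 1.5 ± 0.30, adjusted p = 0.0108). The accessory chain Ifngr2 had 64.3, 85.2 and 64.4 CPM in KO and 37.7, 31.4, 6.07 and 16.6 CPM in WT untransformed libraries (log2 fold change 1.64 ± 0.46, adjusted p = 0.0352). WT untransformed replicate 3 was the lowest library of all 14 for each of the 4 chains except Ifngr1.

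In p210 lines the genotypes were closer. Ifnar1 had 74.8, 90.2, 86.1 and 82.2 CPM in KO p210 and 72.5, 70.5 and 73.5 CPM in WT p210 libraries, where the groups stood apart, as they did for Ifngr1, but the difference missed the threshold (log2 fold change 0.21 ± 0.14, adjusted p = 0.453). The other 3 chains also had positive values, between 0.34 for Ifnar2 and 0.73 for Ifngr1, and none passed. Ifngr1 was the only chain that fell with p210 in both genotypes. It fell in KO lines to 89.3, 149.5, 95.2 and 113 CPM with p210, a log2 fold change of -2.05 ± 0.30 (adjusted p = 0.000416). In WT lines it fell to 71.3, 63.8 and 67.1 CPM with p210, a log2 fold change of -1.28 ± 0.31 (adjusted p = 0.00692). Both falls were past the threshold in all 14 fits that left out 1 library. Ifnar1 fell with p210 in KO lines (-0.49 ± 0.14, adjusted p = 0.0155), and Ifngr2 rose in WT lines (1.68 ± 0.46, adjusted p = 0.0129). Per length, Ifngr1 was the most abundant chain, at a mean of 225 TPM, a level scaled to transcript length and depth, over the 14 libraries, against 72.6 for Ifnar2, 66.8 for Ifngr2 and 46.9 for Ifnar1.

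**Figure D2:**
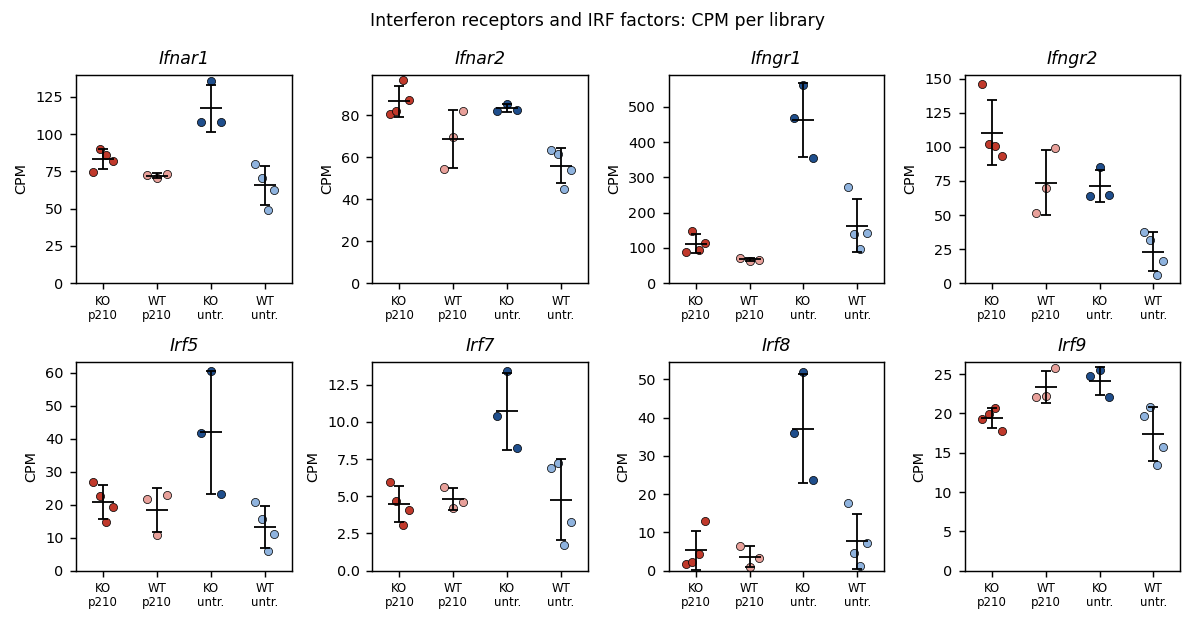
CPM of the 4 receptor chains and of Irf5, Irf7, Irf8 and Irf9 in each of the 14 libraries, by group, with the group mean and SD as lines. KO untransformed libraries lie above WT untransformed libraries in all 8 panels, from 108 to 136 CPM against 49.3 to 80.0 CPM for Ifnar1.

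Among the 6 interferon regulatory factors, Irf5 and Irf9 rose in KO untransformed lines, where 8.73% of all genes rose. Irf5, which acts downstream of Toll-like receptors in myeloid cells, had 41.8, 60.5 and 23.2 CPM in KO and 20.8, 15.5, 5.88 and 11 CPM in WT untransformed libraries (log2 fold change 1.66 ± 0.43, adjusted p = 0.0259). Irf9, the DNA-binding part of the complex with Stat2, had 24.8, 25.6 and 22.1 CPM in KO and 19.6, 20.8, 13.4 and 15.7 CPM in WT untransformed libraries (log2 fold change 0.47 ± 0.14, adjusted p = 0.0397). Neither pair of groups overlapped. Irf7, which amplifies the type I response, and Irf8, a factor of monocyte and dendritic cell differentiation, also stood apart between KO and WT untransformed libraries but missed the threshold. Irf7 had 10.4, 13.4 and 8.25 CPM in KO and 6.87, 7.23, 1.73 and 3.26 CPM in WT untransformed libraries (log2 fold change 1.16 ± 0.42, adjusted p = 0.0758). Irf8 had 35.9, 52.0 and 23.6 CPM in KO and 17.6, 4.53, 1.07 and 7.23 CPM in WT untransformed libraries (log2 fold change 2.30 ± 0.89, adjusted p = 0.0982). Irf8 varied widely within each group.

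None of the 6 factors passed between KO and WT p210 lines, where 4.44% of all genes passed, with log2 fold changes of -0.26 to 0.54. With p210, Irf2, a repressor of many response genes, fell in KO lines to 41.6 ± 4.57 CPM, against 59.0 ± 2.11 CPM in KO untransformed lines (SD, n = 4 and 3, log2 fold change -0.51 ± 0.10, adjusted p = 0.00184). It fell in WT lines to 40.8 ± 1.82 CPM, against 61.9 ± 6.37 CPM (n = 3 and 4, -0.60 ± 0.10, adjusted p = 0.000603). Irf8 fell in KO lines (-2.81 ± 0.90, adjusted p = 0.0295) and so did Irf7 (-1.27 ± 0.42, adjusted p = 0.0316), while Irf9 rose in WT lines (0.43 ± 0.14, adjusted p = 0.0284). Irf1, the factor shared by both interferon classes, passed in no comparison and averaged 28.5 TPM over all libraries.

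Interferon ligand transcripts were at or near 0. The 19 interferon ligand genes looked up (Ifna, Ifnb1, Ifne, Ifng, Ifnk, Ifnl and related genes) held 14 counts in total over all libraries and at most 4 in any 1 library, and 15 of the 19 had 0 in every library. A count of 0 in a library allows up to 3 counts, so lower levels were not detectable at this depth. Of 14 tested genes of JAK-STAT signalling, 4 rose and 0 fell in KO untransformed lines (28.6% passed, against 15.2% of all genes), and 0 passed between KO and WT p210 lines. Stat2 had 40.0, 40.7 and 32.8 CPM in KO and 26.5, 25.3, 16.8 and 18.1 CPM in WT untransformed libraries (log2 fold change 0.80 ± 0.17, adjusted p = 0.0123). With p210, 3 of these genes rose and 2 fell in KO lines (35.7%, near the 37.2% of all genes), and 5 rose and 2 fell in WT lines (50%, against 39.5%). The phosphatase Ptpn6 and the receptor chain Il10rb also rose in KO untransformed lines. The kinases Jak1 and Tyk2 passed in none of the 4 comparisons of groups, and Jak1 had log2 fold changes of -0.08 to 0.00 in them. Socs1, which blocks JAK kinases and was named after its values were seen, rose with p210 in KO lines to 21.9, 16.2, 5.18 and 6.32 CPM, against 0.909, 1.49 and 1.36 CPM in KO untransformed libraries (3.30 ± 0.49, adjusted p = 0.000416). In WT lines it rose to 22.6, 18.4 and 19.0 CPM, against 1.39, 1.34, 2.03 and 1.61 CPM in WT untransformed libraries (3.65 ± 0.45, adjusted p = 0.000118).

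The type I response held all 4 members that fell in KO against WT p210 lines. Of its 24 tested genes, 4 fell and 0 rose in KO against WT p210 lines (16.7% fell, against 3.56% of all genes). An unadjusted p under 0.05 was reached by 13 of them and by 2881 of all 14512 genes. The median log2 fold change was -1.09, also with Oasl1 set at its lower bound. Oasl2 (chr5:114896936-114912234), an oligoadenylate synthetase-like antiviral protein, had 0.104, 0.116, 0.0873 and 0 CPM in KO p210 libraries, against 1.85, 1.14 and 2.54 CPM in WT p210 libraries (log2 fold change -4.52 ± 0.61, adjusted p = 0.00271). The KO p210 libraries held 8 counts in total and the WT p210 libraries 143, a ratio of pooled counts of 23.1 (95% exact interval 11.4 to 54.5, counting error only), so the fitted fold is imprecise. All 4 KO p210 libraries were below every WT p210 library and below every untransformed library of either genotype. Rtp4 (chr16:23520291-23614222), a receptor transporter protein induced by interferon, had 0.104, 0.116, 0.0873 and 0 CPM in KO p210 libraries, against 1.73, 0.538 and 1.12 CPM in WT p210 libraries (-3.82 ± 0.69, adjusted p = 0.0112). It had 8 counts in KO p210 and 93 in WT p210 libraries, a ratio of 15.02 (7.31 to 35.8). Its exons overlap Gm45338 over 13.9% of their bases. Ifit2 (chr19:34550694-34576419), an RNA-binding inhibitor of translation, had 1.1, 0.463, 0.349 and 1.48 CPM in KO p210 libraries, against 12.2, 8.50 and 1.78 CPM in WT p210 libraries (-3.17 ± 0.57, adjusted p = 0.0109). The highest KO p210 library was just below the lowest WT p210 library. Usp18 (chr6:121245906-121270917), the protease that removes Isg15 from proteins and restrains the type I receptor, had 5.54, 5.87, 4.45 and 2.96 CPM in KO p210 libraries, against 16.0, 17.1 and 25.5 CPM in WT p210 libraries (-2.05 ± 0.36, adjusted p = 0.00887). Here the WT p210 libraries were the ones that stood out, above every other library of the series.

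These 4 calls held with each library left out in turn. Without the library labelled KO p210 replicate 2, the log2 fold changes were -4.78 for Oasl2, -4.08 for Rtp4, -2.97 for Ifit2 and -2.18 for Usp18, with adjusted p between 0.0105 and 0.0391. All 4 were lost when the spread was estimated from the 7 p210 libraries alone, with adjusted p between 0.0649 and 0.164 and nearly the same fold changes, and limma-voom kept 2 of them (Ifit2 and Usp18). Over all genes only 5 passed in the fit of these 7 libraries and 386 by limma-voom, against 645 in the main fit. Within the first code the log2 fold changes were -3.71 for Oasl2, -3.31 for Rtp4, -3.77 for Ifit2 and -1.54 for Usp18, and Rtp4 missed the threshold (adjusted p = 0.0512). Within the second code they were -5.62 for Oasl2, -4.45 for Rtp4, -0.99 for Ifit2 and -2.79 for Usp18, and 0 of the 4 passed in a comparison of 2 libraries against 1.

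Other type I genes had large values in the same direction without passing. Oasl1, Mx1, Ifit1, Oas2 and Isg15 are named for this with their values known. Of the 24 tested, 18 had values below 0 and 6 above 0. The highest were Samhd1 (0.56) and Xaf1 (0.55), and 0 rose past the threshold. Mx1, a dynamin-like antiviral GTPase, had 0.836, 0.618, 0.291 and 0.936 CPM in KO p210 and 1.85, 2.82 and 3.10 CPM in WT p210 libraries, without overlap (-1.96 ± 0.68, adjusted p = 0.128). Oasl1, which represses translation of Irf7, had 0 counts in all 4 KO p210 libraries and 28 counts over the WT p210 libraries, a level at least 10.4-fold lower when 3 counts are allowed for the KO p210 group. One WT p210 library was also at 0, so the groups touched. Ifit1, which binds RNA ends that lack a host-type cap, had 0.209, 0.232, 0.0291 and 0 CPM in KO p210 and 2.26, 0.336 and 0.102 CPM in WT p210 libraries (-3.00 ± 1.05, adjusted p = 0.132). Oas2, an activator of RNase L, had 0.314, 0.0772, 0.0582 and 0.117 CPM in KO p210 libraries, against 1.63, 0.134 and 0.254 CPM in WT p210 libraries (-2.34 ± 1.14, adjusted p = 0.283). Isg15, a ubiquitin-like modifier, had 1.73, 0.463, 0.495 and 0.897 CPM in KO p210 libraries, against 3.23, 1.71 and 1.73 CPM in WT p210 libraries (-1.33 ± 0.45, adjusted p = 0.117). For Ifit1, Oas2 and Isg15 the KO and WT p210 libraries overlapped. The spread between WT p210 replicates was wide for several of these genes, with replicate 1 highest for Ifit1, Ifit2, Oas2 and Rsad2.

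**Figure D3:**
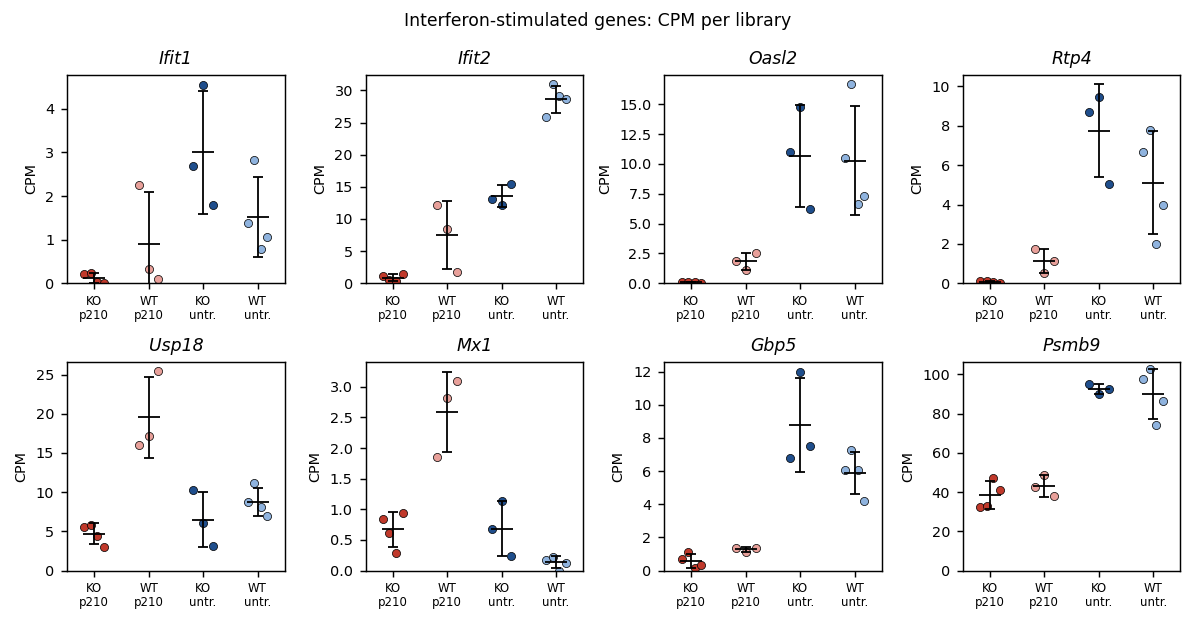
CPM of Ifit1, Ifit2, Oasl2, Rtp4, Usp18, Mx1, Gbp5 and Psmb9 in each of the 14 libraries, by group, with the group mean and SD as lines. KO p210 libraries of Oasl2 lie between 0 and 0.116 CPM, against 1.14 to 2.54 CPM in WT p210 libraries.

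None of the type I genes fell in the knockout in untransformed lines. Of the 24 tested genes, 4 rose (Xaf1, Ifit3, Samhd1 and Trim25), with a median log2 fold change of 0.37. That is 16.7% passing, near the 15.2% of all genes, of which 8.73% rose and 6.5% fell. Xaf1, a pro-apoptotic interferon-induced gene, had 15.9, 18.4 and 29.9 CPM in KO and 5.34, 5.59, 4.15 and 4.57 CPM in WT untransformed libraries (2.12 ± 0.45, adjusted p = 0.0127), with every KO library above every WT library. Samhd1, a dNTP hydrolase that restricts retroviruses, had 230.2, 271 and 218 CPM in KO and 161, 142, 114 and 136 CPM in WT untransformed libraries (0.79 ± 0.19, adjusted p = 0.02). Ifit3 rose at a low level, with 1.54, 2.35 and 0.629 CPM in KO and 0.539, 0.397, 0.165 and 0.176 CPM in WT untransformed libraries (2.24 ± 0.66, adjusted p = 0.0404), and reads shared with near-identical Ifit genes make its count uncertain. Trim25, the ubiquitin ligase that activates the sensor Ddx58, averaged 146 ± 19.3 CPM in KO and 111 ± 6.65 CPM in WT untransformed lines (SD, n = 3 and 4, 0.40 ± 0.12, adjusted p = 0.0496). Oasl2, Rtp4 and Usp18, which fell in KO p210 lines, had log2 fold changes of 0.05, 0.60 and -0.43 here, and Ifit2 had -1.08 ± 0.54 (adjusted p = 0.186) with all 3 KO libraries below the WT libraries.

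In KO lines the type I genes had the lowest median change with p210 of the 6 roles. In KO lines 16 of 24 fell (66.7%, against 18% of all genes) and Isg20 rose, with a median log2 fold change of -1.74. The monocyte and dendritic markers also had medians below 0 there (-1.27 and -1.67), while the neutrophil markers had a median of 2.23. The dendritic marker Itgax rose. The part of these markers in the result was not tested. In WT lines 5 fell and 3 rose (20.8% and 12.5%, against 17.6% and 21.9% of all genes), with a median of -0.46. Oasl2 fell in KO lines to 0.0769 ± 0.0526 CPM with p210, against 10.7 ± 4.28 CPM in KO untransformed lines (SD, n = 4 and 3), a log2 fold change of -7.05 ± 0.64 (adjusted p = 2.29e-05). In WT lines it fell to 1.84 ± 0.698 CPM, against 10.3 ± 4.58 CPM (n = 3 and 4), a log2 fold change of -2.48 ± 0.53 (adjusted p = 0.0032). The 8 counts in KO p210 libraries stood against 936 in KO untransformed libraries, a ratio of 125 (95% exact interval 63.1 to 290.2, counting error only). Rtp4 showed the same order, with -6.59 ± 0.72 in KO lines (adjusted p = 6.92e-05) and -2.17 ± 0.60 in WT lines (adjusted p = 0.0139). Ifit3 had 2 counts over the KO p210 libraries and 126 over the KO untransformed libraries, a ratio of pooled counts of 67.3 (95% exact interval 18.2 to 561, counting error only). Oasl1 had 0 counts over the KO p210 libraries and 69 over the KO untransformed libraries, at least 24.5-fold lower. Ifi44, below the filter, had 0 and 20 counts, at least 7.1-fold lower. Other fitted falls in KO lines ran from -5.83 for Oas2 and -4.71 for Ifit1 to -0.40 for Trim25. They included Isg15 (-2.50 ± 0.45, adjusted p = 0.00141), Xaf1 (-2.82 ± 0.46, adjusted p = 0.0008) and Parp14, an ADP-ribosyltransferase (-1.64 ± 0.25, adjusted p = 0.000503).

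Mx1 and Usp18 went the other way in WT lines. Mx1 rose to 1.85, 2.82 and 3.10 CPM in WT p210 libraries, against 0.180, 0.227, 0 and 0.126 CPM in WT untransformed libraries (4.23 ± 0.75, adjusted p = 0.00103), and this held in all 14 fits that left out 1 library. In KO lines Mx1 had 0.836, 0.618, 0.291 and 0.936 CPM with p210, against 0.682, 1.14 and 0.236 CPM in KO untransformed libraries (-0.02 ± 0.70, adjusted p = 0.987), and the groups overlapped. Usp18 rose with p210 in WT lines (1.16 ± 0.35, adjusted p = 0.0204) and had -0.46 ± 0.35 in KO lines (adjusted p = 0.334). Bst2 (tetherin), the most abundant type I member at 236 TPM, rose in WT lines to 69.8 ± 9.21 CPM, against 50.0 ± 9.29 CPM in WT untransformed lines (SD, n = 3 and 4, 0.48 ± 0.16, adjusted p = 0.0305). Among the other type I members, Dtx3l, a partner ubiquitin ligase of Parp9, fell in both genotypes (-0.72 ± 0.10 in KO and -0.52 ± 0.10 in WT lines), and so did Trim30a, a Toll-like receptor regulator (-1.20 ± 0.17 and -0.56 ± 0.18).

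**Figure D4:**
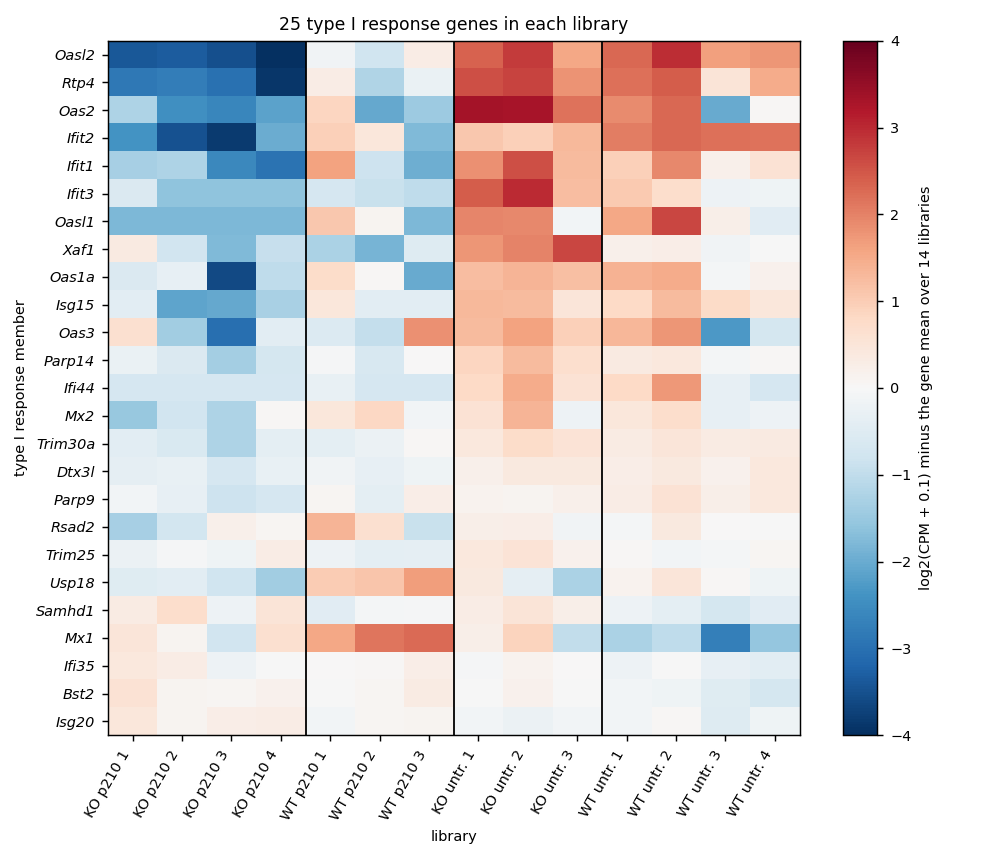
Log2(CPM + 0.1) of the 25 type I response genes in each library, minus the gene's mean over the 14 libraries, with genes in rows and libraries in columns by group. Oasl2 and Rtp4 are lowest in the 4 KO p210 columns, and Mx1 is highest in the 3 WT p210 columns.

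Of the 6 nucleic acid sensors, Dhx58 and Adar rose in KO untransformed lines and none passed between KO and WT p210 lines. Over all genes 8.73% rose in KO untransformed lines and 4.44% passed between p210 genotypes. Dhx58 (LGP2), a regulator of the cytoplasmic RNA sensors, had 20.4, 24.5 and 17.2 CPM in KO and 14.2, 14.7, 8.32 and 8.91 CPM in WT untransformed libraries (0.85 ± 0.25, adjusted p = 0.0431). Adar, which edits adenosine in double-stranded RNA, had 70.9, 72.5 and 69.3 CPM in KO and 62.9, 61.4, 62.5 and 61.9 CPM in WT untransformed libraries (0.19 ± 0.05, adjusted p = 0.031). The step in Adar was small, and the replicates of each group lay close together. Ifih1 (MDA5), a sensor of long double-stranded RNA, and Dhx58 both fell with p210. Ifih1 had 12.3, 14.1, 8.61 and 11.9 CPM in KO p210 and 28.4, 39.7 and 27.9 CPM in KO untransformed libraries (-1.45 ± 0.23, adjusted p = 0.000568). In WT lines it had 23.9, 12.6 and 14.9 CPM with p210 and 32.7, 32.3, 41.8 and 34.6 CPM without (-1.04 ± 0.23, adjusted p = 0.00417), and in neither genotype did the states overlap. Dhx58 fell by 1.93 on the log2 scale in KO lines (adjusted p = 0.000218) and by 1.1 in WT lines (adjusted p = 0.00626). Eif2ak2 (PKR), which stops translation on sensing double-stranded RNA, rose with p210 in KO lines (0.35 ± 0.13, adjusted p = 0.0485) and in WT lines (0.38 ± 0.13, adjusted p = 0.0314). These calls held in 4 of 14 fits with 1 library left out in KO lines and 6 of 14 in WT lines. Ddx58 (RIG-I), a sensor of RNA with a free triphosphate end, passed in none of the 4 comparisons and averaged 22.3 TPM. Zbp1, a sensor of Z-form nucleic acid, was low and variable, with 4.09, 4.35 and 0.943 CPM in KO and 1.26, 0.661, 0.0275 and 0.0753 CPM in WT untransformed libraries (2.66 ± 1.01, adjusted p = 0.0916).

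The guanylate-binding proteins and immunity-related GTPases, which attack vacuoles that hold pathogens, showed no call between genotypes. Of 7 tested, 0 passed in either state, with 1 at an unadjusted p under 0.05 in each. Over all genes 15.2% passed between untransformed and 4.44% between p210 genotypes, and 0 of 7 cannot be told apart from these shares. With p210, Gbp3 and Gbp5 fell in both genotypes. Gbp5 had 0.679, 1.12, 0.175 and 0.312 CPM in KO p210 and 6.77, 12 and 7.53 CPM in KO untransformed libraries (-3.95 ± 0.50, adjusted p = 0.000169). It had 1.35, 1.11 and 1.37 CPM in WT p210 and 6.06, 7.27, 6.10 and 4.19 CPM in WT untransformed libraries (-2.21 ± 0.50, adjusted p = 0.00459), and every p210 library was below every untransformed library. Gbp3 fell by 2.43 on the log2 scale in KO lines (adjusted p = 0.000291) and by 1.51 in WT lines (adjusted p = 0.00504). Irgm2 rose in WT lines (0.55 ± 0.15, adjusted p = 0.0133). Gbp2, Gbp7, Igtp and Irgm1 passed in none of the 4 comparisons. The largest of their values was -1.12 ± 0.53 for Gbp2 with p210 in KO lines (adjusted p = 0.115). Igtp and Irgm2 share 162 exon bases, and Gbp7 shares 11.3% of its exon bases with Gm43802. Iigp1 had 1 count over the KO p210 libraries and 5 over the WT p210 libraries and was not tested.

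Antigen processing was lower with p210. In WT lines all 4 genes fell and in KO lines 3 of 4, against 17.6% and 18% of all genes. Psmb9 (chr17:34181988-34187764), an inducible subunit of the immunoproteasome, had 32.4, 33.0, 47.2 and 41.0 CPM in KO p210 and 95, 90.0 and 92.7 CPM in KO untransformed libraries (-1.27 ± 0.14, adjusted p = 8.78e-05). In WT lines it had 42.7, 48.8 and 37.8 CPM with p210 and 97.4, 103, 74.0 and 86.3 CPM without (-1.06 ± 0.15, adjusted p = 0.000247), a fall that was past the threshold in all 28 alternatives. Tap1, a subunit of the peptide transporter of the endoplasmic reticulum, fell by 1.00 on the log2 scale in KO lines (adjusted p = 0.00177) and by 0.60 in WT lines (adjusted p = 0.0262). Psmb8, the other proteasome subunit, fell by 0.59 (adjusted p = 0.00857) in KO lines and by 0.45 (adjusted p = 0.0319) in WT lines. Tap2, the other transporter subunit, was the only member that fell in KO untransformed lines, with 183, 168 and 188 CPM, against 243, 255, 246 and 230.2 CPM in WT untransformed libraries (-0.44 ± 0.13, adjusted p = 0.0472). It fell with p210 in WT lines (-0.39 ± 0.13, adjusted p = 0.035) and had 0.06 ± 0.13 in KO lines (adjusted p = 0.744).

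**Figure D5:**
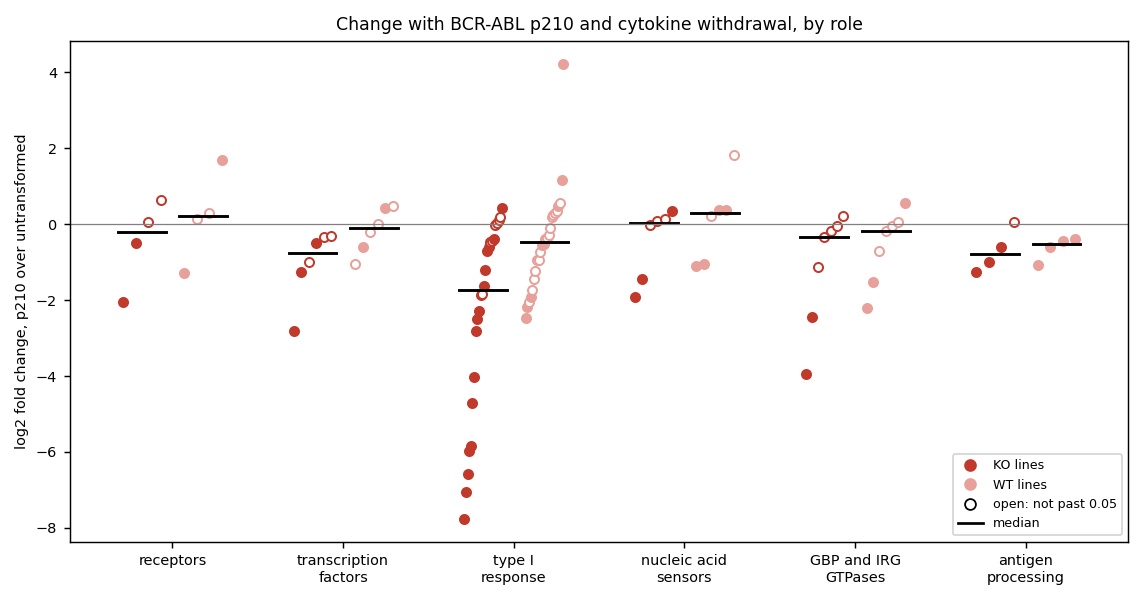
Log2 fold change of p210 over untransformed for 51 members by role, with KO lines left of WT lines in each role, 1 point per gene, filled where past 0.05, and the median as a bar. The type I response has medians of -1.74 in KO lines and -0.46 in WT lines. Oasl1, the lowest point, is at its fitted value and not a measured fold.

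Whether the knockout effect differed between p210 and untransformed lines was tested as an interaction. The difference of the log2 fold changes was below 0 for 46 of 51 members, with a median of -0.74, against -0.03 over all genes. By edgeR 0 members passed (0.0345% of all genes did), and limma-voom also called 0. In the edgeR fit 22 members had an unadjusted p under 0.05, as did 2041 of all 14512 genes. DESeq2 called 5, all below 0: Oasl2 (-4.64, adjusted p = 1.15e-05), Rtp4 (-4.48, adjusted p = 0.000421), Mx1 (-4.29, adjusted p = 0.00308), Irf9 (-0.73, adjusted p = 0.0318) and Parp14 (-1.23, adjusted p = 0.0367). Over all genes DESeq2 called 409 for the interaction, against 5 by edgeR and 4 by limma-voom. In edgeR the nearest was Oasl2 at -4.57 ± 0.77 (adjusted p = 0.0848). The genes called in only 1 state are therefore not shown by edgeR to differ in their knockout effect between states.

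Of 47 other interferon-stimulated genes tested, 6 rose and 0 fell in KO untransformed lines, against 8.73% and 6.5% of all genes. In all 12.8% passed, near the 15.2% of all genes. In KO p210 lines 0 rose and 5 fell (10.6% passed, against 4.44% of all genes, 0.882% rising and 3.56% falling). With p210 in KO lines 2 rose and 16 fell (4.26% and 34%, against 19.2% and 18% of all genes). In all 38.3% passed there, near the 37.2% of all genes. In WT lines 10 rose and 5 fell with p210 (21.3% and 10.6%, against 21.9% and 17.6% of all genes). Those that rose in KO against WT untransformed lines were B2m, Znfx1, Slfn5, Slfn2, Ly6e and Tapbp. B2m, the light chain of MHC class I, had 1977, 2113 and 2022 CPM in KO and 1307, 1518, 874 and 1152 CPM in WT untransformed libraries (0.75 ± 0.15, adjusted p = 0.0119). Those that fell in KO p210 lines were Ifi203, Gbp9, Trim21, Tgtp1 and Epsti1. Without the library labelled KO p210 replicate 2, Epsti1 (adjusted p = 0.0964), Gbp9 (adjusted p = 0.115) and Trim21 (adjusted p = 0.116) missed the threshold. Ifi203 (adjusted p = 0.0317) and Tgtp1 (adjusted p = 0.0461) still passed there, as did 2.1% of all genes. With each of the 14 libraries left out in turn, the call of Tgtp1 held in 13 fits, Ifi203 in 6, Epsti1 in 4, Gbp9 in 3 and Trim21 in 2, and Epsti1 was at -0.76 without WT p210 replicate 1. Epsti1 had 14.6, 10.3, 7.45 and 6.86 CPM in KO p210 and 42.7, 15.3 and 17.6 CPM in WT p210 libraries (-1.37 ± 0.34, adjusted p = 0.0429), with KO p210 replicate 1 just below the lowest WT p210 library. Ifi203, a DNA-binding HIN-200 family gene, had 2.82, 4.09, 0.611 and 1.25 CPM in KO p210 and 8.22, 5.31 and 19.3 CPM in WT p210 libraries (-2.33 ± 0.55, adjusted p = 0.0357). Of 18 tested adaptors and sensing genes, 4 rose and 1 fell in KO untransformed lines, and 1 rose and 1 fell in KO p210 lines (27.8% and 11.1% passed, against 15.2% and 4.44% of all genes). Ikbke, a kinase that activates interferon regulatory factors, had 89.7, 116 and 98.8 CPM in KO and 52.5, 39.5, 17.3 and 28.8 CPM in WT untransformed libraries (1.56 ± 0.29, adjusted p = 0.00849). Its scaffold Tank rose in the knockout in both states, the p210 call holding in 7 of 14 fits with 1 library left out (0.49 ± 0.08 in untransformed and 0.36 ± 0.08 in p210 lines, adjusted p = 0.00656 and 0.0337). Cgas, the cytosolic DNA sensor listed as Mb21d1, fell in the knockout in both states, with 36.5, 36.3 and 43.5 CPM in KO and 54.8, 58.1, 59.1 and 61.2 CPM in WT untransformed libraries (-0.59 ± 0.08, adjusted p = 0.00374) and 24.6, 22.9, 23.3 and 22.2 CPM in KO and 31.0, 32.8 and 28.4 CPM in WT p210 libraries (-0.40 ± 0.08, adjusted p = 0.0161).

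For the 19 tested members with an ISRE core the log2 fold change of KO over WT in p210 lines had a median of -0.44, and for the 22 with a window but no core 0.07. With p210 the medians were -1.12 with and -0.66 without a core in KO lines, and -0.56 and -0.25 in WT lines. In KO against WT untransformed lines the medians were 0.22 and 0.34. Of the 12 members that rose in that comparison, 11 had a window, and the core was in 1 of them (Ifit3). These are descriptions and were not tested.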

How the data were processed

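Libraries of the 14 RNA samples (SENSE mRNA-Seq kit) were sequenced from 1 end over 50 bp, per the labels' protocols. The authors' gene counts were made with featureCounts 1.5.1 on GRCm38 with the GENCODE M13 annotation, reverse-stranded and from uniquely mapped reads, per the file headers. The authors also deposited TPM values, which a recomputation from counts and lengths matched within 0.05. Trimmomatic and STAR are named in the submitters' processing notes. Symbols came from a GENCODE M21 table. Library totals were 20270348 to 50303271 counts.

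Counts were tested with edgeR 4.0.16 (R 4.3.3), with TMM scaling, a filter on low counts (minimum 10 per library, 15 in total), robust quasi-likelihood fits of all 14 libraries in 4 groups, and Benjamini-Hochberg adjustment over 14512 genes at 0.05. SE is that of the log2 fold change. CPM values are per library and unlogged. The fit was checked on simulated counts. limma 3.58.1 (voom), DESeq2 1.42.0, other scalings and filters, blocks, sequencing code, merged runs and each library left out were alternatives.

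The members and lists were chosen with earlier results of these data known. Named genes were members past the threshold between genotypes, up to 4 members per role with the smallest adjusted p with p210, up to 3 per role by TPM, pathway genes that passed between genotypes, and Stat2, Jak1, Tyk2 and Cdk6. One gene under this rule is not reported here. Isg15, Isg20, Ifit1, Ifi44, Oas1a, Oas2, Oas3, Oasl1, Rsad2, Mx2, Parp9, Parp14, Zbp1, Gbp7 and Iigp1, where named beyond that rule, were chosen after their values were seen. Same-numbered KO and WT libraries did not deviate together (correlation of deviations -0.0814 to 0.119), so numbers were not used as pairs. The same code and letter in both states were read as 1 line, with correlations of 0.0207 to 0.163. No pair of libraries agreed within sampling noise. Intervals and floors cover counting error only.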

Additional observations from a re-analysis of the deposited data

Results flagged for a closer look

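In 6 of 102 combinations of member and group of 4 libraries, 1 library lay far from the other 3, judged by its gap to the nearest as a share of the group's range against Dixon's 95% critical value, which chance passes in about 1 in 20 groups. In KO p210 replicate 1, Ifngr2 was at 146 CPM against 93.4 to 102 in the other KO p210 libraries (share 0.839), and Bst2 at 94.2 against 66.5 to 71.1 CPM (0.833). In the same library Gbp3 was at 3.5 against 1.36 to 1.51 CPM (0.931), and Ifit3 at 0.105 CPM against 0 in the others (share 1), which is 2 counts. In WT untransformed replicate 2, Rsad2 was at 15.3 CPM against 11 to 11.6 CPM (0.842), and Gbp3 at 12 against 7.23 to 7.77 CPM (0.885). Both Gbp3 values stood high, in 1 library of each group.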

How the results depend on the processing

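In KO against WT untransformed lines, where 13 members passed, the count was 6 with no filter on low counts, 7 with the replicate block by number, 4 with merged runs as a term, 0 within the first code and 0 within the second, 4 without both KO p210 replicate 2 and WT untransformed replicate 3, and 1 to 14 with 1 library left out. In KO against WT p210 lines, where 4 passed, it was 8 with DESeq2, 2 with limma-voom, 0 with only the p210 libraries, 0 within the second code, 3 without both libraries and 4 to 7 with 1 left out. With p210 in WT lines, where 23 passed, it was 15 with merged runs as a term, 2 within the second code and 16 to 25 with 1 left out. With p210 in KO lines, where 30 passed, it was 0 within the second code and 22 to 32 with 1 left out. For the interaction it was 5 with DESeq2 and 0 to 1 with 1 left out, against 0. The replicate block by number left 4, 17 and 27 calls in the other 3 comparisons, the block by code 13, 5, 25 and 27 in all 4, and the block by line 19 in WT and 23 in KO lines with p210. Calls over all genes moved as well. Between untransformed genotypes they went from 2211 to 1273 with no filter, 1632 with the block by number and 1042 with merged runs. Between p210 genotypes they went from 645 to 1454 with DESeq2, 386 with limma-voom and 5 with only the p210 libraries. For the interaction they went from 5 to 409 with DESeq2.

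Oas3 in KO against WT p210 lines changed sign, to 0.683 within the first code and to 0.203 without WT p210 replicate 3, its lowest value with 1 left out being -1.96; the cause was not tested. Scaling by library size moved the median of all genes to between -0.12 and -0.10, and under it the medians of antigen processing (untransformed) and the transcription factors (p210) between genotypes and of the sensors with p210 in KO lines changed sign. Between KO and WT p210 lines, Oasl1 could not be fitted within the second code. At least 1 library was under 3 counts for 11 of the 53 members (Ifi44, Ifit1, Ifit3, Iigp1, Mx1, Mx2, Oas2, Oasl1, Oasl2, Rtp4 and Zbp1).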
